A study of Homo sapiens with 6 samples.

Results

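The immediate early transcription factor genes described here are EGR1, EGR2, EGR3, FOS, JUN, JUNB, JUND and SRF, together with the immediate early response genes IER2 and IER5. They were taken by symbol from the deposited gene table with the condition of a mean of at least 10 normalized counts over the 6 libraries. All 10 listed genes met it, out of 13465 genes that did so and 17202 genes in the table. EGR3 stood nearest to the limit, with a mean of 18.9, and EGR2 came next with 84.4. The libraries were bulk RNA-seq of DND41, an established human line of T-ALL, the acute lymphoblastic leukaemia of T cells. In 3 libraries the cells had received MB1-47, called a mitochondrial uncoupling drug in the series title, and 3 libraries had the solvent DMSO. The dose is written as 4 mM in the labels, a unit that could not be checked here and may be meant as micromolar. Both groups stood for 24 h in RPMI medium with serum, and per the growth protocol each was plated in triplicate, with no word on whether replicates were separate cultures. P-values thus rest on the spread among these 6 libraries, which could be partly technical. All libraries come from 1 cell line.

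Of 9 T-lineage markers, 8 had a mean of at least 10, and their summed level was 24048 to 27959 normalized counts in MB1-47 libraries and 44051 to 47908 in DMSO libraries. Of the B-lineage markers, CD79A had a log2 change, MB1-47 minus DMSO, of -1.28 ± 0.08 (SE, limma adjusted p = 8.8e-07) and PAX5 one of 0.29 ± 0.68 (adjusted p = 0.775). PDGFRB, listed as a stromal marker, carried the stromal sum of 977 to 1195 in MB1-47 libraries and 1426 to 1827 in DMSO libraries. The myeloid markers CD14 and LYZ summed to 3.22 to 11.2 in MB1-47 libraries and 0 to 22.9 in DMSO libraries, and CD14 was listed at 0 in all 3 MB1-47 libraries. The epithelial markers KRT8 and CDH1 summed to 18.7 to 81.9 with MB1-47 and 11.7 to 56.2 with DMSO. The part of these shifts in the results below was not tested. Summed over genes, a library held 28323706 to 32667526 normalized counts, which are not depths. In bulk RNA, fewer cells that transcribe a gene and less of its RNA per cell cannot be told apart, and all levels are relative.

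Immediate early genes are transcribed within minutes of a growth factor or antigen receptor signal, without new protein synthesis, and their mRNAs are usually short-lived. ERK phosphorylates the ternary complex factors that sit with SRF, the serum response factor, on CArG boxes in promoters such as those of EGR1 and FOS. EGR proteins are zinc finger factors, while FOS and JUN proteins pair through leucine zippers to form AP-1, which JNK and ERK also control through phosphorylation. In thymocytes, EGR factors act downstream of the pre-T-cell receptor and the T-cell receptor.

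The promoters of EGR1 and SRF are printed as examples with CArG boxes, and that of JUND as an example with a CRE-like site. They were chosen with the changes of these genes known, so they are no support for a link between site and change. RefSeq windows on GRCh38.p14, from 250 bases before to 50 bases after a transcript start, were found for 9 of the 10 genes (12 windows), and EGR3 was not matched. Each run is the 250 bases before the start, on the gene's own strand, at chr5:138465229-138465478 on the plus strand for EGR1, chr6:43171019-43171268 on the plus strand for SRF, and chr19:18281623-18281872 on the minus strand for JUND. Capitals mark the CArG boxes of EGR1 and SRF and the CRE-like site of JUND.
EGR1: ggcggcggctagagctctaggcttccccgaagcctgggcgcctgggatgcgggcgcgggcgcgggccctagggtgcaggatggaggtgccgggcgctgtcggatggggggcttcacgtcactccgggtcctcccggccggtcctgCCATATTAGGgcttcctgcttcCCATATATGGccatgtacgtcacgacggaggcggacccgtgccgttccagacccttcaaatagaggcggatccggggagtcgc
SRF: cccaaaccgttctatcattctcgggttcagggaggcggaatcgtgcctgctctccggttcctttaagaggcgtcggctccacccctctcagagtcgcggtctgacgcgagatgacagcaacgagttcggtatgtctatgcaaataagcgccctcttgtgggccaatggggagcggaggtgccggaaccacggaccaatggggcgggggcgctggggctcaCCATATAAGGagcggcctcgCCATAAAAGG
JUND: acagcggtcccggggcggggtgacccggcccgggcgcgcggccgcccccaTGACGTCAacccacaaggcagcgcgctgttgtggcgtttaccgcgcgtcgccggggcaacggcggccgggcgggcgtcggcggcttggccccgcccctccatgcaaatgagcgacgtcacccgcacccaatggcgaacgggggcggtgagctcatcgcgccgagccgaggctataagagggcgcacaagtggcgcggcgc

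The CArG box was searched by its usual pattern (a pair of C, then 6 bases of A or T, then a pair of G), which reads alike on both strands. It occurred in windows of 3 genes: 2 matches in EGR1, whose first bases lay at positions -105 and -83 from the start, 2 in SRF at -30 and -10, and 1 at -71 in the EGR2 window whose start lies farthest downstream. The FOS window held none, but it reaches only 250 bases before the start, so a box farther upstream would not be found. Among all 35116 windows of the same length in the RefSeq table, 1.29% held a CArG box. Among the 14310 windows of tested genes, 1.15% did. These shares are per window, while a gene can have more than 1 window. The CRE-like site TGACNTCA, searched on both strands, occurred in JUND as TGACGTCA at position -200 and in JUN as TGACATCA at -67. It was in 7.72% of all windows and 6.16% of windows of tested genes. The AP-1 site TGACTCA, whose matches cannot be matches of the CRE-like site, was searched on both strands and was in no window of these genes (4.95% of all windows, 3.42% of those of tested genes). The EGR site GCGTGGGCG, on both strands, was also in none (0.795% of all windows, 1.24% of those of tested genes). These matches describe letters in a window and not binding. EGR1, EGR2 and SRF, the genes with a CArG box in a window, had lower levels in every MB1-47 library than in any DMSO library, though EGR2 missed the test's threshold. IER2, with no CArG box in its window, fell too. JUN and JUND, the genes with a CRE-like site, had higher levels. FOS, JUNB and IER5, with neither site in their windows, did not pass the threshold. A link between these sites and the changes was not tested.

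EGR1 showed the largest change of the set, and IER2 the next among those past the threshold. Changes are log2 differences of MB1-47 minus DMSO on the log2(value + 1) scale ± SE, from limma fitted across all 13465 genes with Benjamini-Hochberg adjustment and a threshold of 0.05. Of the 10 genes, 3 fell (EGR1, IER2 and SRF), where 19.8% of all genes tested fell, and 2 rose (JUN and JUND), where 18.3% rose. The other 5 did not pass. Together 5 of 10 passed, against 38.1% of all genes tested. The groups did not overlap in 8 of 10 genes, against 49.3% of all genes tested. In 5 of these MB1-47 lay below DMSO (25.2% of all genes) and in 3 above it (24.1%). EGR3 met the filter only through its DMSO libraries, which favours a lower level with MB1-47, so its place in this count is no support. Without it the groups did not overlap in 7 of 9 genes, with MB1-47 below DMSO in 4.

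**Figure D1:**
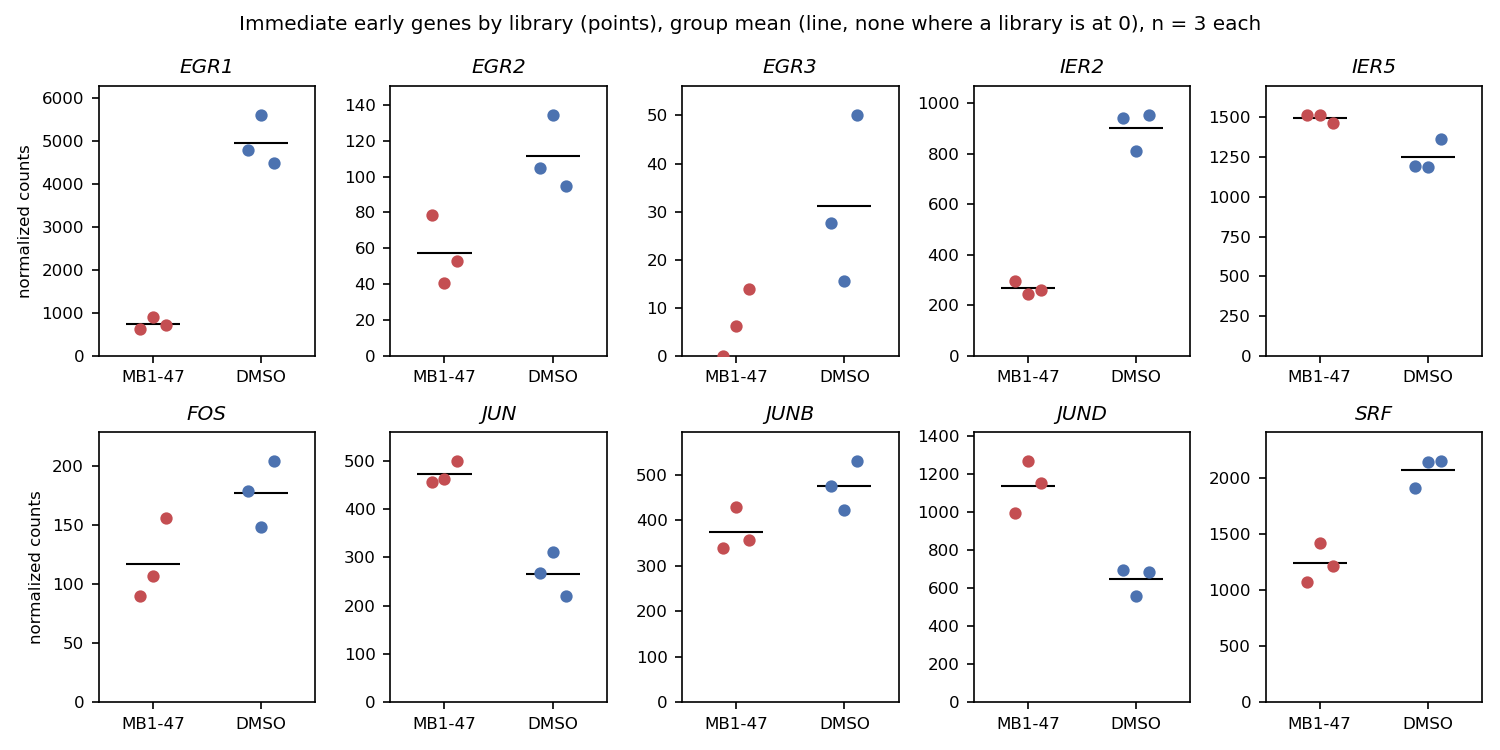
Normalized counts of each gene in every library (points; MB1-47 left in red, DMSO right in blue; linear axes from 0), with the group mean as a line except where a library is at 0. EGR1 and IER2 lie far lower in all MB1-47 libraries, JUN and JUND lie higher, and FOS and JUNB overlap between the groups.

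EGR1, a zinc finger activator and the best known factor of its family, lies on chromosome 5 from 138465490 to 138469315 on the plus strand (GENCODE 29, GRCh38) and is made from 2 exons. It had 621, 902 and 729.8 normalized counts in MB1-47 replicates 1, 2 and 3, against 4792, 5600.2 and 4473 in DMSO replicates 1, 2 and 3. Every MB1-47 library was far below every DMSO library. The means were 751 ± 142 with MB1-47 and 4955 ± 581 with DMSO (SD, n = 3 each), a 6.60-fold lower mean. The log2 change was -2.73 ± 0.14 (95% interval -3.05 to -2.41, adjusted p = 4.7e-07), the 67th most negative of 13465. Over 15 alternative settings it ran from -2.87 to -2.60.

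EGR2, a zinc finger factor with roles in T-cell selection and anergy, lies on chromosome 10 from 62811996 to 62919900 on the minus strand. It had 78.8, 40.9 and 52.8 normalized counts in MB1-47 libraries, against 105, 134 and 94.8 in DMSO libraries. The groups did not overlap, but MB1-47 replicate 1 came close to DMSO replicate 3. The change of -0.98 ± 0.36 had a 95% interval of -1.77 to -0.18 and missed the threshold (adjusted p = 0.0544). It passed in 3 of 15 alternative settings, among them without MB1-47 replicate 1 (-1.23, adjusted p = 0.0366; range over all settings 0.0366 to 0.163).

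EGR3, a further zinc finger factor of T-cell activation, lies on chromosome 8 from 22687659 to 22693302 on the minus strand. Its values were near the filter: 0, 6.18 and 13.8 normalized counts in MB1-47 libraries, and 27.6, 15.6 and 50.1 in DMSO libraries. No MB1-47 library reached the lowest DMSO library, though MB1-47 replicate 3 and DMSO replicate 2 were close. The mean was 6.67 ± 6.93 with MB1-47, under the filter of 10, and 31.1 ± 17.5 with DMSO (SD, n = 3 each), so the gene entered the test only through DMSO and its lower level is no support for a difference. The change of -2.61 ± 1.07 missed the threshold (adjusted p = 0.0788) and depends on how low values are treated. It was -1.71 with a pseudocount of 5. Without MB1-47 replicate 3 it was -3.44 and passed (adjusted p = 0.0403; range over 14 settings 0.0403 to 0.244), and without MB1-47 replicate 1, the library listed at 0, it was -1.49.

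Of the immediate early response genes, IER2 fell and IER5 did not pass. IER2, a small nuclear protein induced by growth factors, lies on chromosome 19 from 13150415 to 13154908 on the plus strand. It had 298, 244 and 260.4 normalized counts in MB1-47 libraries, against 939, 809 and 953 in DMSO libraries, with no overlap and a wide gap between the groups. The means were 268 ± 27.5 with MB1-47 and 900.4 ± 79.2 with DMSO. The change was -1.75 ± 0.16 (95% interval -2.10 to -1.40, adjusted p = 1.2e-05), and it passed in all 15 alternative settings. GENCODE 29 places an antisense gene over IER2, and over EGR3 a processed transcript gene on the opposite strand. Neither was used here.

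IER5, a relative of IER2 that is known to be induced by heat shock and to act with HSF1, lies on chromosome 1 from 181088712 to 181092899 on the plus strand. It had 1514, 1512 and 1466 normalized counts in MB1-47 libraries, against 1190.1, 1186 and 1366 in DMSO libraries. Here the MB1-47 libraries lay above the DMSO libraries, by a margin far smaller than that of IER2 in the other direction. The means were 1497 ± 27.3 with MB1-47 and 1247 ± 102 with DMSO. The change of 0.27 ± 0.11 (95% interval 0.02 to 0.51) missed the threshold with an adjusted p of 0.0805 (range 0.0147 to 0.181), and passed in 1 of 15 alternative settings, that with equal library totals (0.39).

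SRF, the MADS-box factor that binds CArG boxes, lies on chromosome 6 from 43171299 to 43181507 on the plus strand and has 7 exons. It had 1076, 1426 and 1223 normalized counts in MB1-47 libraries, against 1917, 2148 and 2152 in DMSO libraries. Every MB1-47 library was below every DMSO library. The means were 1242 ± 176 with MB1-47 and 2072 ± 135 with DMSO, a 1.67-fold lower mean. The change was -0.75 ± 0.13 (95% interval -1.02 to -0.47, adjusted p = 0.00076), from -0.85 to -0.62 over 15 alternative settings, in all of which it passed.

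FOS, the inducible AP-1 subunit that cannot pair with itself and needs a JUN partner, lies on chromosome 14 from 75278774 to 75282230 on the plus strand. It had 90.0, 107 and 156 normalized counts in MB1-47 libraries, against 179, 149 and 204 in DMSO libraries. The groups overlapped, with MB1-47 replicate 3 above DMSO replicate 2. The change of -0.61 ± 0.29 had a 95% interval of -1.25 to 0.02 (adjusted p = 0.12), so a fall of more than 2-fold and no change both lay within it. It passed in 0 of 15 alternative settings, with adjusted p-values from 0.0615 to 0.313.

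Of the JUN family, the AP-1 subunits that pair with FOS proteins or with each other, JUN and JUND rose and JUNB did not pass. JUN, the JNK target on chromosome 1 from 58780788 to 58784327 on the minus strand, had 457, 463 and 499 normalized counts in MB1-47 libraries, against 267, 311 and 219 in DMSO libraries. All MB1-47 libraries were above all DMSO libraries. The means were 473 ± 22.6 with MB1-47 and 266 ± 45.8 with DMSO, and the change was 0.84 ± 0.19 (95% interval 0.43 to 1.26, adjusted p = 0.0045). Over 15 alternative settings it ran from 0.71 to 0.97.

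JUND, the JUN protein that is the least dependent on stimulation and is bound by menin, lies on chromosome 19 from 18279760 to 18281622 on the minus strand. It had 994, 1266 and 1152 normalized counts in MB1-47 libraries, against 697, 561 and 683 in DMSO libraries, again with all MB1-47 libraries above all DMSO libraries. The means were 1137 ± 137 with MB1-47 and 647 ± 74.6 with DMSO. The change was 0.81 ± 0.15 (95% interval 0.49 to 1.14, adjusted p = 0.0012), from 0.71 to 0.94 over 15 alternative settings. JUN and JUND passed in all of these settings.

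JUNB, a weaker activator than JUN that can oppose it, lies on chromosome 19 from 12791496 to 12793315 on the plus strand. It had 339, 428 and 356 normalized counts in MB1-47 libraries, against 476, 422 and 529 in DMSO libraries. MB1-47 replicate 2 lay above DMSO replicate 2, so the groups overlapped. The change of -0.35 ± 0.17 (95% interval -0.73 to 0.04) did not pass (adjusted p = 0.147; range 0.103 to 0.363 over 15 settings). HOOK2 overlaps JUNB on the opposite strand, and since the sources used here do not say whether counting used strand, their reads may not be told apart. HOOK2 stood at 193, 159 and 183 in MB1-47 libraries, against 69.7, 362 and 139 in DMSO libraries, with DMSO replicate 2 high.

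**Figure D2:**
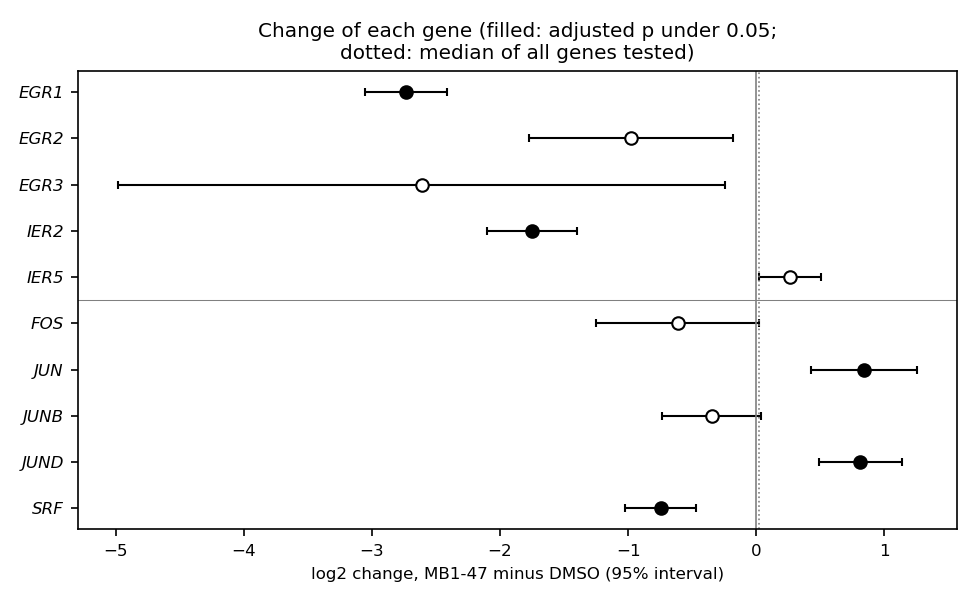
Log2 change of each gene, MB1-47 minus DMSO, with its 95% interval; filled points have an adjusted p under 0.05, the dotted line is the median of all genes tested (0.02), and a thin line parts the EGR and IER genes (above) from FOS, the JUN family and SRF (below). EGR1 at -2.73 and IER2 at -1.75 lie far left of SRF at -0.75, and JUN and JUND lie right of 0.

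Set beside each other, the 5 EGR and IER genes had a median change of -1.75 and the 5 FOS, JUN family and SRF genes a median of -0.35, against 0.02 over all genes tested. Of the EGR and IER genes, 2 fell, 0 rose and 3 did not pass, and of the FOS, JUN family and SRF genes, 1 fell, 2 rose and 2 did not pass. The mean change of the EGR and IER genes minus that of the other 5 genes was -1.55. This is a description with no test, and EGR3, which met the filter only through DMSO, weighs on it: it was -1.29 without EGR3 and -1.36 with a pseudocount of 5. The median of the 4 EGR and IER genes left was -1.36. Within each library, the mean log2 level of the EGR and IER genes minus that of the others was -1.88, -1.72 and -1.49 in MB1-47 libraries, and -0.19, -0.19 and -0.06 in DMSO libraries. Without EGR3 it was -0.16, -0.60 and -0.58 in MB1-47 libraries, and 0.80, 0.96 and 0.75 in DMSO libraries. With and without EGR3 the groups did not overlap. IER5, an immediate early response gene like IER2, did not pass, and SRF fell while JUN and JUND rose.

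Levels can be compared between genes only per length, so normalized counts were divided by the length of the longest coding transcript of the GENCODE 29 basic set, which may differ from the annotation the authors used. On that scale EGR1 averaged 239 ± 45.1 normalized counts per kb with MB1-47 and 1579 ± 185 with DMSO, where it was the highest of the 10 genes and stood clear of SRF at 493 ± 32.1. With MB1-47 the highest was JUND at 610.5 ± 73.6, against 347 ± 40.0 with DMSO. IER5 was next at 357 ± 6.51 with MB1-47, against 298 ± 24.4 with DMSO.

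The full order per kb with MB1-47 was JUND, IER5, SRF, EGR1, JUNB, JUN, IER2, FOS, EGR2 and EGR3, and the neighbours SRF and EGR1, and EGR1 and JUNB, overlapped between libraries. With DMSO the order was EGR1, SRF, JUND, IER2, IER5, JUNB, FOS, JUN, EGR2 and EGR3. There the neighbours JUND and IER2, IER2 and IER5, IER5 and JUNB, and FOS and JUN overlapped. EGR1 thus stood at rank 4 with MB1-47 and rank 1 with DMSO, and IER2 at rank 7 and rank 4. EGR2 and EGR3 were the lowest in both groups.

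Within the EGR family, EGR1 made up nearly all of the summed level per kb in both groups, with 91.6% ± 3.40 in MB1-47 libraries and 97.2% ± 0.173 in DMSO libraries. The summed EGR level was 260.2 ± 39.5 per kb with MB1-47 and 1624 ± 188 with DMSO. Within the JUN family, JUND held 62.8%, 65.0% and 64.8% of the summed level in MB1-47 libraries, against 52.6%, 48.5% and 51.0% in DMSO libraries. JUNB held 22.0%, 22.5% and 20.5% in MB1-47 libraries, against 36.8%, 37.3% and 40.4% in DMSO libraries. The share of JUNB was lower with MB1-47 in every library while its own level overlapped between the groups. JUN held 14.2% ± 1.45 with MB1-47 and 11.1% ± 2.81 with DMSO. The summed JUN family level was 949.7 ± 98.6 per kb with MB1-47 and 684 ± 54.7 with DMSO, with no overlap between libraries.

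**Figure D3:**
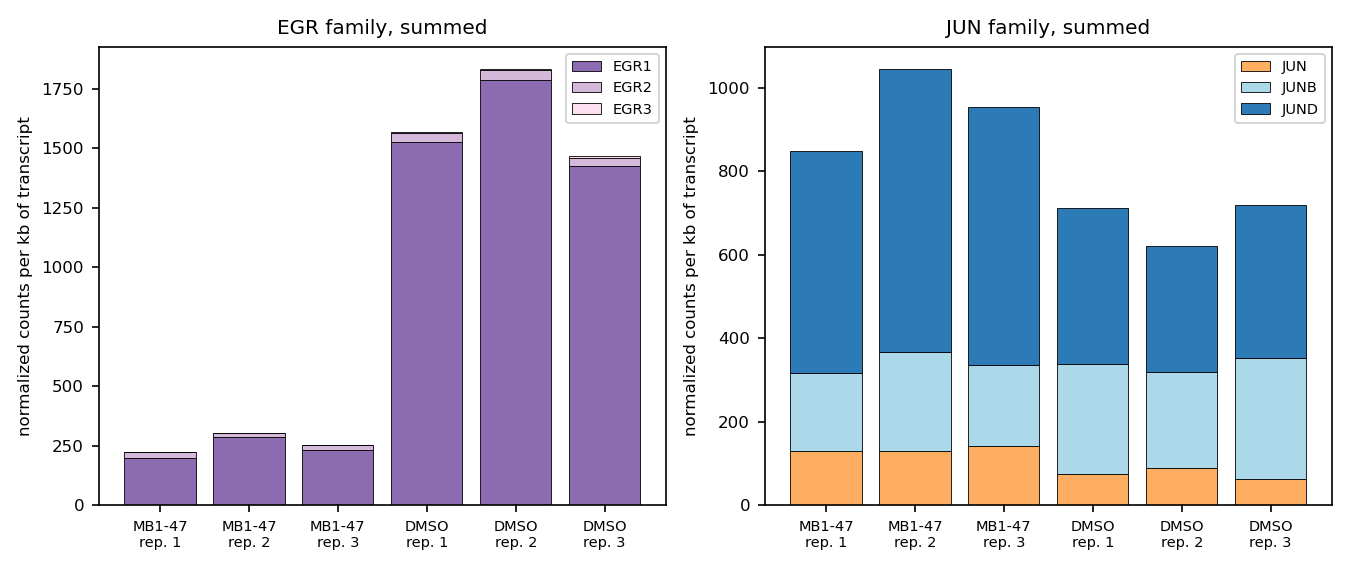
Summed level of the EGR family (left) and the JUN family (right) in each library, in normalized counts per kb of transcript, stacked by gene, with MB1-47 libraries left of DMSO libraries. The EGR sum is almost wholly EGR1 and averages 260.2 with MB1-47 and 1624 with DMSO, while the JUN family sum averages 949.7 and 684, with more of it from JUND in MB1-47 libraries.

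The longest basic coding transcript had 1 exon in 5 of the genes, IER2, IER5, JUN, JUNB and JUND. JUNB, IER2 and JUND all lie on chromosome 19, with 357 kb between JUNB and IER2. JUND lies much farther off, from 18279760. IER2 fell (-1.75), JUNB had a negative change that did not pass (-0.35), and JUND rose (0.81). Any part of position in these changes was not tested. AU-rich elements, which shorten the life of many inducible mRNAs, were counted in the 3' UTR of the same transcripts as the pentamer ATTTA and the nonamer TTATTTATT, each on the transcript strand. The nonamer contains the pentamer. The pentamer was present in 9 of 10 genes, all but IER2, and in 72.5% of the 12165 tested genes with such a UTR.

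FOS had the densest run, with 5 pentamers in 806 bases (6.20 per kb, higher than in 95.1% of tested genes), and IER5 had the most, 10 in 3013 bases. The nonamer was found in FOS, IER5 and SRF, that is 3 of 10 genes, against 9.33% of tested genes. EGR1, with the largest change, had 1 pentamer in 1234 bases (0.810 per kb), below the median of tested genes of 1.66 per kb. IER2, with none, fell, and IER5, with 10, did not pass. Any part of these elements in the changes was not tested.

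Genes around these factors were grouped into 10 lists of partners, kinases and targets, and 46 of their 119 tested genes passed the threshold. That is 38.7%, near the 38.1% of all genes tested, so the lists together did not stand out. The 46 include ID3 and MMP9, which met the filter only through DMSO, so their calls are no support. Each list is read against the 19.8% of all genes that fell, the 18.3% that rose and the median of 0.02. Among 12 tested AP-1 partners outside the set, 3 rose and 2 fell, while 7 missed the threshold (41.7% called, median -0.14). MAF, a large MAF factor of T helper cells, rose to 79.2 ± 4.25 normalized counts with MB1-47, against 26.7 ± 14.1 with DMSO (1.70 ± 0.51, adjusted p = 0.0223), and ATF2 and ATF7, which pair with JUN on CRE-like sites, rose by 0.57 and 0.33. BATF3, a partner of JUN in lymphocytes, fell (-1.18 ± 0.33) and so did MAFK, a small MAF protein (-0.72 ± 0.16). Of the FOS relatives, FOSL2 changed by -0.02 and FOSB by -0.26, and neither passed. FOSL1, with a mean of 9.02 over the libraries, was below the filter and not tested. ATF3 stood at 303 ± 25.9 with MB1-47 and 410 ± 115 with DMSO and did not pass (-0.40, adjusted p = 0.173). The call of ATF7 was lost without MB1-47 replicate 1 or 3 or DMSO replicate 1 or 3 (adjusted p 0.0602 to 0.0944 there). It was also lost with limma fitted without its intensity trend (adjusted p = 0.0748). The call of MAF was lost without MB1-47 replicate 1, 2 or 3 or DMSO replicate 3 (adjusted p 0.0547 to 0.0700 there), and that of BATF3 without MB1-47 replicate 1 or DMSO replicate 3 (0.0537 and 0.0611).

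None of the 5 tested SRF cofactors passed: the ternary complex factors ELK1, ELK3 and ELK4 and the actin-regulated coactivators MRTFA and MRTFB changed by -0.03 to 0.29 on the log2 scale, with 0 at an unadjusted limma p under 0.05. Of 18 tested cytoskeletal genes known as SRF targets, 11 fell, 1 rose and 6 did not pass (66.7% called, against 38.1% of all genes tested, median -0.996). TAGLN2, an actin-binding protein, fell to 939 ± 220 normalized counts with MB1-47, against 5335 ± 692 with DMSO (-2.52 ± 0.16), FLNA, which crosslinks actin, fell by 1.82 and PFN1, which loads actin monomers, by 1.60 on the log2 scale. ACTB, which encodes beta-actin, had 38257, 43214 and 39042 in MB1-47 libraries, against 124292, 111959 and 125350 in DMSO libraries. ACTG1, which encodes gamma-actin, fell by 0.76 on the log2 scale, but with quantile normalization it changed by 0.093 and did not pass. TAGLN, the smooth muscle relative of TAGLN2, was the 1 that rose (1.43), at a mean near 60 normalized counts, a call lost without MB1-47 replicate 1 or 2 or DMSO replicate 2 or 3.

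Of the EGR corepressors, NAB2, which EGR factors are known to induce and which then restrains them, had 509, 407 and 446 normalized counts in MB1-47 libraries, against 778, 658 and 598 in DMSO libraries. It fell by 0.58 on the log2 scale (adjusted p = 0.0168), a call lost without MB1-47 replicate 2 (adjusted p = 0.0547) or DMSO replicate 1 (0.0623). NAB1 did not pass (0.08). Among 9 tested genes linked to EGR factors in T cells, 2 rose, 2 fell and 5 did not pass (44.4% called). CBLB, a ubiquitin ligase that restrains T-cell signalling, rose to 2884 ± 419 with MB1-47, against 804 ± 88.7 with DMSO (1.84 ± 0.14), and NDRG1 by 1.47. ID2, an inhibitor of E proteins, fell by 1.06, and ID3, its relative downstream of EGR1 in thymocytes, had 4.32, 9.46 and 14.8 in MB1-47 libraries, against 52.9, 31.7 and 46.6 in DMSO libraries. ID3 met the filter only through DMSO, so its place in the count of this list is no support for a difference. It fell by 2.19, a call lost without MB1-47 replicate 1 (adjusted p = 0.0577) or DMSO replicate 1 (0.0683) or 3 (0.0744).

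Of 26 other primary response genes tested, 6 rose, 2 fell and 18 did not pass (median 0.06). The share called, 30.8%, was below the 38.1% of all genes tested. BTG2, an antiproliferative gene, rose to 3260 ± 302 normalized counts with MB1-47, against 806 ± 80.7 with DMSO (2.02 ± 0.12), and PPP1R15A, a regulator of eIF2 alpha phosphorylation, rose by 1.69. The other 4 that rose were TNFAIP3 (1.52) and NFKBIA (0.95), inhibitors of NF-kB signalling, RGS1 (1.03), a regulator of G protein signalling, and KLF6 (0.95), a zinc finger factor. KLF10, a zinc finger factor induced by TGF-beta, fell to 91.5 ± 22.5 with MB1-47, against 289 ± 26.7 with DMSO (-1.67 ± 0.26). PLK3, a polo-like kinase, changed by -0.57 with an adjusted p of 0.0495, a call that 10 of 15 alternatives lost (adjusted p 0.0526 to 0.182), among them those without MB1-47 replicate 1 or 3 or DMSO replicate 2 or 3.

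AP-1-linked genes were few at these levels: of 6 tested, 3 fell and 3 did not pass (50% called, against 38.1% of all genes tested). MMP9 met the filter only through DMSO, so its place in this count is no support for a difference. MMP9, a matrix metalloproteinase with AP-1 sites in its promoter, had 2.15, 6.70 and 2.33 normalized counts in MB1-47 libraries, against 215, 208 and 261 in DMSO libraries. PLAUR, the urokinase receptor, fell by 1.51 (lost without MB1-47 replicate 1 or DMSO replicate 1, adjusted p = 0.0597 and 0.0676). CD44, an adhesion receptor, fell by 0.27 (lost without DMSO replicate 3, adjusted p = 0.0692). The change of CD44 was -0.07 with quantile normalization (adjusted p = 0.41), -0.14 with equal library totals (0.0982) and -0.27 without the trend (0.064), and passed in none of these.

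Of 19 RAS to ERK pathway genes, 6 rose, 2 fell and 11 did not pass, and the 42.1% called is near the 38.1% of all genes tested. RASGRP1, the RAS activator downstream of the T-cell receptor, rose to 2495 ± 78.0 normalized counts with MB1-47, against 908 ± 142 with DMSO (1.47 ± 0.13), while SOS2, another RAS activator, rose by 1.05 and BRAF, a MEK kinase, by 0.91. MAPK3, which encodes the kinase ERK1, changed by 0.10 and did not pass. The 2 that fell were HRAS (-0.80) and MAP2K1 (-0.33). The call of HRAS was lost without MB1-47 replicate 1 or 3 or DMSO replicate 1 or 3 (adjusted p 0.108 to 0.123 there), and that of MAP2K1 without MB1-47 replicate 1 or 2 or DMSO replicate 1 or 3 (0.0670 to 0.10). With equal library totals neither passed. HRAS also lost its call with no filter or with the replicate block, and MAP2K1 without the trend.

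Of 19 JNK and p38 pathway genes, 2 rose, 1 fell and 16 did not pass, so 15.8% were called, fewer than the 38.1% of all genes tested. MAP3K1, a kinase upstream of JNK, rose to 1233 ± 50.9 with MB1-47, against 731 ± 26.6 with DMSO (0.75 ± 0.12), and MAPKAPK3, a p38 substrate kinase, fell by 1.13. MAPK8 and MAPK9, which encode the JNK kinases, changed by 0.20 and 0.10 and did not pass. MAPKAPK2, a relative of MAPKAPK3, changed by 0.34 (adjusted p = 0.0474), a call lost without any 1 of MB1-47 replicate 1, 2 or 3 or DMSO replicate 2 or 3, where the adjusted p ran from 0.0553 to 0.150. It was also lost with no filter, without the trend or with the replicate block (limma adjusted p 0.0550 to 0.0929). Among 6 genes for the turnover of JUN and its cofactors, DET1 (0.66) and ITCH (0.44), ubiquitin ligase components, were higher and 4 did not pass (33.3% called), among them MEN1 (0.11), which encodes menin. The call of DET1 was lost without MB1-47 replicate 1 or 2 or any DMSO library, and that of ITCH without MB1-47 replicate 1 or 3 or DMSO replicate 2 or 3. DET1 also lost its call with no filter or with the replicate block, and ITCH without the trend.

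**Figure D4:**
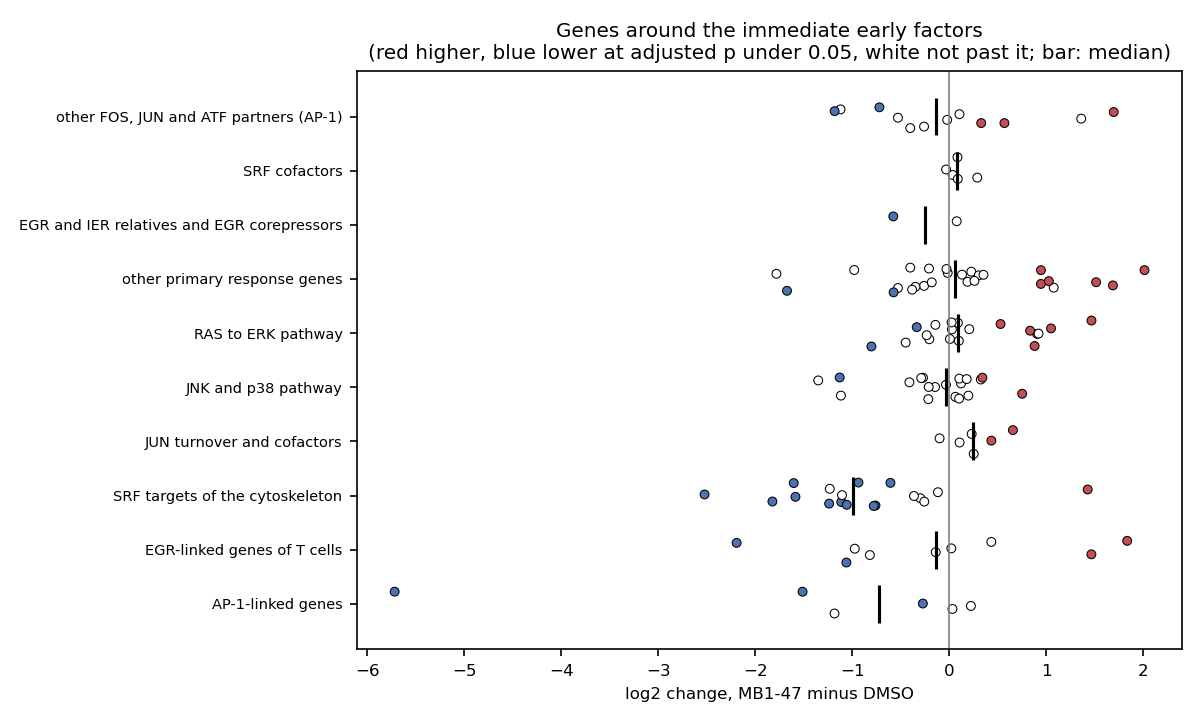
Log2 change, MB1-47 minus DMSO, of each tested gene in 10 lists around the immediate early factors (red higher and blue lower at an adjusted p under 0.05, white not past it; the bar is the list's median; vertical scatter has no meaning). The cytoskeletal SRF targets lie mostly left of 0 with a median of -0.996, while the SRF cofactors stay between -0.03 and 0.29.

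The genes whose 6 log2 values, each centred on its own mean, were nearest to those of a member were sought among 9882 protein-coding genes with a mean of at least 100, by the root mean square difference. Nearest to EGR1 were SLC29A1, a nucleoside transporter (0.18), and SEMA7A, a membrane-anchored semaphorin (0.18), which changed by -2.55 and -2.61. Nearest to IER2 were CHAF1B, a histone chaperone of replication (0.07), and PCNA, the polymerase clamp (0.08), at -1.83 and -1.71. Nearest to SRF were CCND3, a G1 cyclin (0.02), and TRMT2A, a tRNA methyltransferase (0.03), at -0.76 and -0.74. For JUN they were TMUB2 and SLC35A3 (0.06 each), at 0.82 and 0.89, and for JUNB RTF2 and DYNLL1, at -0.31 and -0.29, which like JUNB did not pass. Over only 6 libraries this likeness is mostly that of the size of the change.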

How the data were processed

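Libraries were strand-specific RNA-seq of total RNA, 3 from MB1-47 and 3 from DMSO cultures of DND41 cells, grouped by the sample titles. The deposited values are normalized counts per the labels and were treated as a signal of at least 0. The authors worked with kallisto 0.44.0, DESeq and GRCh38.p13, per the submitters' processing notes; which annotation was used, how transcripts became genes, and whether strand or a filter was applied is not given in the sources used here. The program kallisto estimates counts per transcript from read compatibility. Values were fractional: 59.0% to 64.3% of values below 20 lay within 0.1 of a whole multiple of the best step, so whole reads were not recovered, depth is unknown, and no counting interval is given. No pair of libraries shared a value above 0 in any gene.

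Values were taken as log2(value + 1), so changes of low genes depend on the added 1. Where a library is listed at 0, the fitted fold can exceed the ratio of means. For EGR3, DMSO over MB1-47, these were 6.11 and 4.66. limma 3.58.1 in R 4.3.3 tested 13465 genes with a mean of at least 10, with an intensity trend and Benjamini-Hochberg adjustment at a threshold of 0.05; the steps were tested on simulated data. The genes described and the 10 lists were chosen with earlier results of these data known, so no list is independent support. Of 148 list entries (145 genes), 132 matched by symbol. From each list the text names the up to 3 called genes of largest change, if their mean reached 50; other list genes named in the text were chosen after their values were seen. For EGR1, IER2, JUN, JUNB and SRF the 2 nearest profiles were named; those of FOS and some marker and kinase genes are not reported here. Positions and transcripts are from GENCODE 29 on GRCh38, promoters from RefSeq on GRCh38.p14. The alternatives changed the pseudocount (0.5 or 5), the filter (none or 50), the scaling (trimmed-mean factors, quantile normalization or equal library totals), the trend (none) or the design (a replicate block, or 1 library left out). Plots were made in Python 3.11.15 with matplotlib 3.10.9.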

Additional observations from a re-analysis of the deposited data

How the results depend on the processing

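EGR1, IER2, JUN, JUND and SRF kept their direction and passed the threshold in each of the 15 alternative settings run, and of 149 alternative values of the 10 genes none changed sign. EGR2, EGR3 and IER5 passed in a few settings, 5 values in all. EGR2 passed with quantile normalization (adjusted p = 0.0415), with limma without a trend (0.0465) and without MB1-47 replicate 1. The count of these genes past the threshold stayed between 5 and 6. All genes past the threshold numbered 4146 to 5398 over the settings, against 5125. Equal library totals put the median of all genes at 0.15, against 0.02, and gave 3335 higher and 2063 lower genes in place of 2458 and 2667. The mean change of the EGR and IER genes minus that of FOS, the JUN family and SRF was -1.55. It was -1.36 with a pseudocount of 5 and -1.29 with a filter at a mean of 50, which drops EGR3. Leaving EGR3 out by name, an alternative chosen after seeing the data, gives the same -1.29. It ran from -1.65 to -1.46 with a library left out. Genes of the 10 lists past the threshold numbered 34 to 50, against 46. With equal library totals 4 genes of the JUN turnover list were higher, in place of 2, and with equal library totals or quantile normalization 4 of the JNK and p38 list, in place of 2. In 5 settings 1 AP-1-linked gene was higher, in place of 0. Of 869 alternative values of list and neighbour genes, 81 lost the call, 4 gained it and 1 changed sign: ACTG1, a high-level actin gene, changed by -0.76 and by 0.093 with quantile normalization (adjusted p = 0.354); the cause was not tested. The equal replicate numbers of the groups are tied by no label, and the deviations of same-numbered libraries correlated at 0.02, 0.06 and 0.01 for numbers 1, 2 and 3, with 3 of 6 libraries closest to their own number. With the replicate block, 5246 genes passed and EGR1 changed by -2.73 (adjusted p = 2.9e-06), and the same number of the 10 genes, 5, passed. Depth is unknown and limits the genes near the filter most, EGR3 above all.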
